A study of Mus musculus with 8 samples.

Results

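Long intergenic non-coding RNAs (lincRNAs) are transcripts that carry no long open reading frame and are annotated between protein-coding genes. Members were chosen by biotype and by raw count. A gene was taken as an expressed lincRNA where GENCODE M21, a mouse annotation on the GRCm38 genome build, gives it the biotype lincRNA and where at least 20 read pairs were counted on it in at least 4 of the 8 livers, and H19 was left out. This gave 250 lincRNAs among 52636 genes in the count tables and among 5009 lincRNA genes in them, of which 1774 had a count in any liver and 3235 had none. The raw counts that selected them were read without regard to treatment, except that Gm30692 was included by name. Some lincRNAs act in the nucleus, as scaffolds of nuclear bodies or as regulators of the locus they are transcribed from. Others are precursors whose introns or exons hold small nucleolar RNAs (snoRNAs, which guide chemical modification of ribosomal RNA) or microRNAs. In liver, lincRNA transcription is often restricted to 1 cell type or state.

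The livers came from male, wild-type C57BL/6J mice in 2 groups of 4, AAV8-GFP and AAV8-AGXT. Both received a liver-tropic adeno-associated vector of serotype 8 whose TBG promoter drives its gene in hepatocytes, so that other liver cells should not express it. AGXT is the enzyme that converts glyoxylate to glycine, and the comparison asks how the liver transcriptome differs when human AGXT rather than GFP is overexpressed. The virus was given at 7 weeks of age, and from 8 weeks of age both groups ate the same MASH diet, rich in fat, fructose and cholesterol, for 24 weeks, so that no liver is from a mouse on chow and none is without virus. Mice are named by the numbers in their labels, where 303, 311, 314 and 315 are AAV8-GFP mice and 308, 309, 316 and 319 AAV8-AGXT mice. Values are given in this order throughout.

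The read pairs assigned to genes numbered 17095433 to 28780140 in each library, with a median of 22853958 in AAV8-GFP mice and 18470607 in AAV8-AGXT mice. In mouse 308, 56.3% of all tallied pairs fell on genes, against 62.4 to 69.1% in the others. The level of the mouse Agxt gene was between 148 and 180 CPM (counts scaled to the library total) with AAV8-GFP and between 201 and 405 CPM with AAV8-AGXT, and since the transgene is the human gene this row does not measure it directly. The hepatocyte markers Alb, Ttr, Apoa1, Cps1 and Hnf4a summed to between 42269 and 72627 CPM, and all 5 were detected. CPM here were scaled by TMM factors, which correct for library composition, and these ran from 1.02 to 1.14 in AAV8-GFP mice and from 0.83 to 1.00 in AAV8-AGXT mice.

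The 250 lincRNAs were a small and uneven part of the liver RNA. They took 0.437, 0.381, 0.339 and 0.358% of gene counts in the AAV8-GFP mice and 0.384, 0.319, 0.336 and 0.286% in the AAV8-AGXT mice. The ranges of the groups overlapped, and the means were 0.379 ± 0.0424% and 0.331 ± 0.0406% (SD, n = 4 each). Neat1 alone held 40.7% of the counts on lincRNAs, the leading 4 (Neat1, Malat1, Gm26917 and Gm42047) held 58.7%, and the leading 10 held 69.7%. Most others were scarce, since 187 had a mean between 1 and 10 CPM, 21 lay below 1 CPM and only 4 reached 100 CPM. Their median was 2.46 CPM, against 13.8 CPM over all 15248 genes tested.

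All 250 passed the low-count filter of the test. The minimum of 20 was reached in all 8 mice by 152 of them, in exactly 4 AAV8-GFP mice and no AAV8-AGXT mouse by 12, and in the reverse pattern by 0. Those 12, which include Gm13056 and Gm14005 among the lincRNAs called below, could enter only through the group where they were high, and the AAV8-GFP libraries were deeper, so that counts over the 250 are descriptions here. At the edge of the rule, the fourth-highest count of Gm13855, BC030343 and Gm47882 was 20, and that of 1110006O24Rik, Gm43848 and A830052D11Rik, which stayed out, was 19.

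As gene models, the lincRNAs were shorter than the coding genes tested, with a median merged exon length of 2133.5 against 4419 bases and a median of 3 against 9 exons in the longest transcript, and 33 had a single exon. The name intergenic did not hold for all, because 92 overlapped another gene and 39 overlapped a protein-coding gene, while 158 overlapped none. The kit marked strand, but the strand setting of the counting was not given in the sources used here, so that reads of overlapping pairs may not be told apart. The median coefficient of variation of the lincRNAs between mice was 22.4% in AAV8-GFP and 29.2% in AAV8-AGXT livers. Over all genes tested it was 15.1 and 18.6%. These sets were not matched for level, since the lincRNAs had a median of 2.46 CPM against 13.8 CPM. Low counts vary more by themselves, and the part of this in the difference was not tested.

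The most abundant lincRNAs are best compared per kb of merged exons, as in the plot of CPM per kb. AW112010, an interferon-induced transcript of immune cells that is known to encode a small protein, came first at a level of 93.2 CPM per kb, followed by Gm26917 at 71.8, Neat1 at 69.6, Gm10076 at 49.6 and Malat1 at 35.9 CPM per kb. 1810058I24Rik, known to encode a mitochondrial micropeptide, reached 31.8 CPM per kb, Tmem250-ps 31.3, Epb41l4aos 29.3, Gm42047 28.6 and Gm48633 28.2 CPM per kb. None of these 10 passed the test between the groups.

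**Figure D1:**
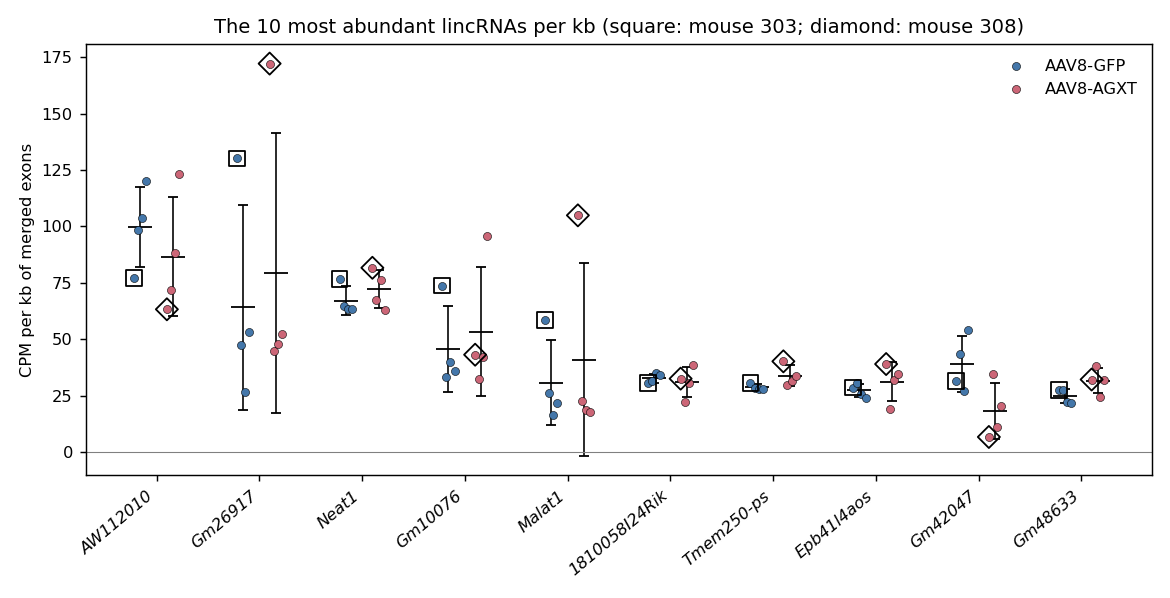
CPM per kb of merged exons in each of the 8 livers for the 10 most abundant lincRNAs, with 1 point per mouse and the group mean ± SD as bars. Gm26917 and Malat1 were high in mouse 303 (square, AAV8-GFP) and mouse 308 (diamond, AAV8-AGXT), and in those 2 mice alone. Neat1 was also highest in these mice within their groups, but by less in proportion.

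Neat1, the scaffold of paraspeckles, was measured at 1595, 1347, 1317 and 1315 CPM in AAV8-GFP mice and at 1697, 1399, 1584 and 1311 CPM in AAV8-AGXT mice. The groups overlapped and the log2 fold change (AAV8-AGXT over AAV8-GFP, on the fitted scale) was 0.10 ± 0.14 (SE), adjusted p = 0.677. Each adjusted p here is from the quasi-likelihood test of edgeR, adjusted by Benjamini-Hochberg across all genes tested. Malat1, the nuclear speckle RNA transcribed from the neighbouring locus on chromosome 19, was 409, 182, 116 and 152 CPM with AAV8-GFP and 733, 158, 131 and 123 CPM with AAV8-AGXT. Mouse 308 was highest and mouse 303 next, the other 6 lay between 116 and 182 CPM, and the adjusted p was 0.707.

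Gm26917, a chromosome 17 transcript at chr17:39843013-39846341, had the same 2 mice on top. Its levels were 433, 157, 88.1 and 177 CPM with AAV8-GFP and 573, 150, 159 and 174 CPM with AAV8-AGXT (adjusted p = 0.766). In mouse 303, 63.3% of pairs fell on genes, the lowest share in its group, as 56.3% was in its own group for mouse 308. Pairs left unaligned were 3.80% in mouse 303 and 6.05% in mouse 308, the highest share in each group, and the part of this in the result was not tested. Without mouse 308 the log2 fold change of Malat1 moved from 0.41 to -0.66 and that of Gm26917 from 0.30 to -0.43, so that neither has a stable direction.

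AAV8-AGXT livers had 5 lincRNAs higher and 5 lower at an adjusted p under 0.05. These 10 are 4.0% of the 250, and 9 without Gm30692 (3.61% of the rest), whose inclusion was by name. Of the lower ones, 2 (Gm13056 and Gm14005) entered through the AAV8-GFP mice alone, where they were high, so that the rule favoured their difference. Of the 12 lincRNAs that entered in this way edgeR called 2. Over all genes tested 4.35% were called, 2.45% higher and 1.9% lower. The share of the lincRNAs includes Gm30692, named for its difference, and Gm13056 and Gm14005, let in by the group where they were high. It is therefore a description beside these values, and the share without these genes was not computed. The median log2 fold change was -0.01 over the lincRNAs and 0.02 over all genes, with 127 lincRNAs below and 123 above 0. In bulk liver a lower level from fewer cells of a type cannot be told apart from less RNA per cell.

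**Figure D2:**
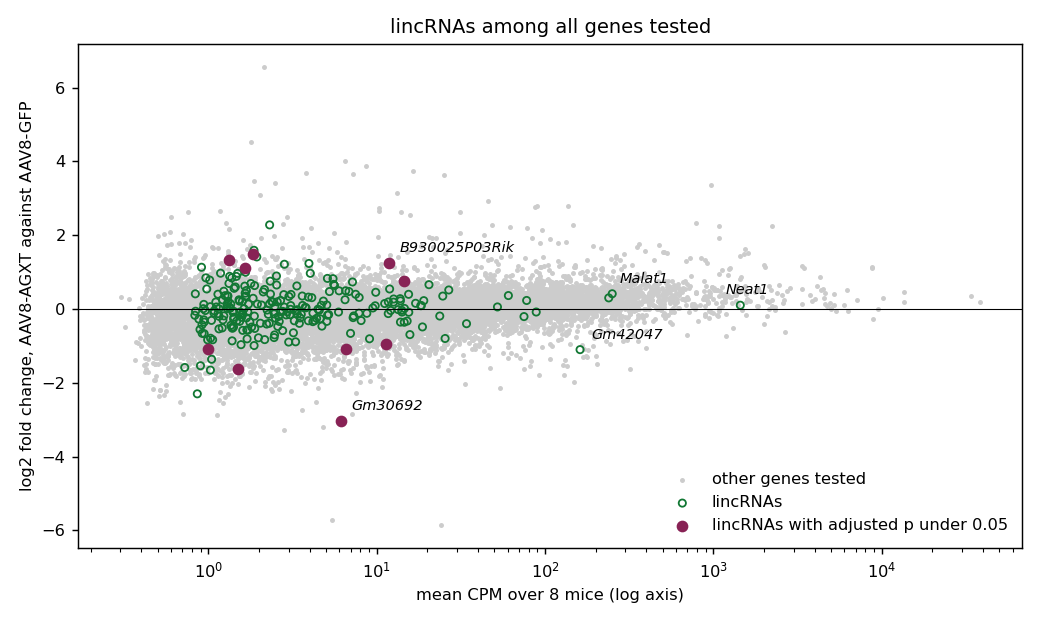
Log2 fold change of AAV8-AGXT against AAV8-GFP (y axis) by mean CPM over the 8 mice (x axis, log scale) for every gene tested, in grey, with the 250 lincRNAs as open circles and the 10 called ones filled. The lincRNAs are spread on both sides of 0, with medians of -0.01 for them and 0.02 for all genes, and Gm30692 sits apart at -3.03.

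The calls depended on the test and on single mice. DESeq2 called 16 lincRNAs higher and 15 lower, which is 12.4% against a background of 14.0% (7.06% higher and 6.91% lower), and the 10 called by edgeR were among them. In 35 lincRNAs (14.0%) the groups did not overlap, 15 higher and 20 lower, against 16.6% of all genes (8.93% higher and 7.63% lower). Without Gm30692 these were 34 (13.7%). The rule let in 12 lincRNAs through AAV8-GFP mice alone and 0 through AAV8-AGXT mice alone, so this split by direction is a description. Without mouse 311 of AAV8-GFP edgeR called 0 lincRNAs, with 46 at an unadjusted p under 0.05, and 2 of all 15343 genes tested in that fit (0.0130%), whereas with all mice 60 (24.0%, background 26.2%) were at that level. Without mouse 314 edgeR called 1 lincRNA and 0.0956% of all genes, and without mouse 319 it called 2 lincRNAs and 0.0902% of all genes. Of the 8 fits that left out 1 mouse, B930025P03Rik was called in 6, AI838599 in 5 and Snhg18 in 2. Gm13056 was called in 4 of them, which is a description, since it entered through the AAV8-GFP mice alone. All 10 kept their direction in each of these fits.

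**Figure D3:**
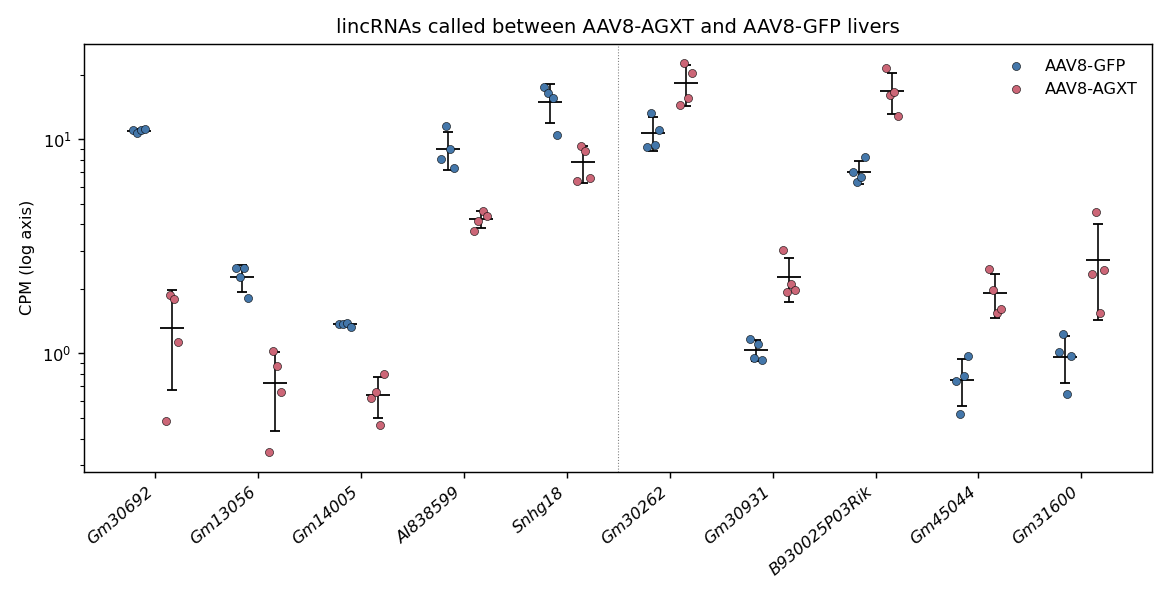
CPM of the 10 called lincRNAs in each liver (log axis), 1 point per mouse, with the group mean ± SD as bars, and the 5 lower in AAV8-AGXT to the left of the dotted line. The 4 AAV8-AGXT mice lie on 1 side of the 4 AAV8-GFP mice in every gene, and for Gm30692 between 0.483 and 1.86 CPM against 10.7 to 11.1 CPM.

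Gm30692 (ENSMUSG00000109141), at chr8:24412179-24416937 on the plus strand, was near 11 CPM in every AAV8-GFP mouse. The values were 11.1, 10.7, 11 and 11.1 CPM with AAV8-GFP and 0.483, 1.86, 1.80 and 1.13 CPM with AAV8-AGXT. The 2 groups were far apart and the AAV8-GFP mice differed by less than 0.5 CPM. The fitted log2 fold change was -3.03 ± 0.31 (SE), given as a description because the gene was chosen for this difference. Its single annotated transcript has 5 exons and 801 bases, with a longest open reading frame of 82 residues. Its first 250 bases are shown because this is the lincRNA with the steepest difference among those called, with the 77 bases of exon 1 in capitals.

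Gm30692: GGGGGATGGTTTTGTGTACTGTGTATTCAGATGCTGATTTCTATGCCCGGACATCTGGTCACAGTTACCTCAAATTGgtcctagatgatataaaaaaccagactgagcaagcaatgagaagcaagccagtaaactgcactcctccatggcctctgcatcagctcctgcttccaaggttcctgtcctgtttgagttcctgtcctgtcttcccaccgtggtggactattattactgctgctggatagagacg

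The nearest protein-coding gene, Tcim, lies 20243 bases downstream on the opposite strand. It was 73.1, 72.1, 46.9 and 65.8 CPM with AAV8-GFP and 35.2, 28.4, 23.2 and 21.5 CPM with AAV8-AGXT. Tcim, a small regulator of transcription that acts in Wnt and NF-κB signalling, fell by 1.25 on the log2 scale (SE 0.19, adjusted p = 0.0236). Its groups did not overlap either, although the lincRNA differed by more than its neighbour. Of the 8 called lincRNAs whose nearest coding gene could be tested, Tcim was the only such gene that was called.

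Of the other lower lincRNAs, AI838599 (ENSMUSG00000085180, chr4:3242055-3258092, plus strand) was 8.08, 11.4, 8.95 and 7.32 CPM with AAV8-GFP and 3.73, 4.15, 4.62 and 4.39 CPM with AAV8-AGXT. It fell by 1.08 (SE 0.18, adjusted p = 0.0276), and its 4 AAV8-AGXT mice lay within 1 CPM of each other. Gm13056 (ENSMUSG00000085395, chr4:141278439-141279794, plus strand), a 2-exon gene 20875 bases from Arhgef19, was 2.50, 2.27, 2.49 and 1.81 CPM and then 0.345, 1.02, 0.873 and 0.661 CPM. It met the minimum in no AAV8-AGXT mouse, where 5, 17, 17 and 14 pairs were counted, so its log2 fold change of -1.62 ± 0.31 (SE) is a description. Arhgef19 had a log2 fold change of 0.26 and an adjusted p of 0.31.

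Snhg18 (ENSMUSG00000096956, chr15:32240565-32244662, minus strand) is the host gene of the snoRNA Snord123 and is transcribed away from Sema5a, a semaphorin, whose start lies 148 bases upstream. Its level was 17.4, 16.4, 15.5 and 10.5 CPM with AAV8-GFP and 6.35, 9.31, 8.83 and 6.61 CPM with AAV8-AGXT. It fell by 0.94 (SE 0.20, adjusted p = 0.0374), and mouse 315 was the AAV8-GFP mouse nearest to the other group. Sema5a was 3.51, 4.81, 5.4 and 2.29 CPM and then 1.04, 3.91, 2.41 and 1.18 CPM, with overlapping groups, a log2 fold change of -0.91 and an adjusted p of 0.21. The RefSeq window from 250 bases before to 50 after the start of Snhg18, which holds the start of both genes, is shown for this shared position. It lies at chr15:32244613-32244912 (GRCm38.p6, minus strand) and has a GC content of 75.3%, 31 CpG dinucleotides and 5 matches to the GC box (GGGCGG on either strand), in capitals.

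Snhg18 promoter window: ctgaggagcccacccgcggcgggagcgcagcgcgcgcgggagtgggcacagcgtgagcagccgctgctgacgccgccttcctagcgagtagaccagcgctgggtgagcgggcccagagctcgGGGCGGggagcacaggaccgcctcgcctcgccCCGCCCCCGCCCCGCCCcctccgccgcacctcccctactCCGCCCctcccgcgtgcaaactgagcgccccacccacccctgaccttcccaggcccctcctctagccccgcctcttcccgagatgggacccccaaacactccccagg

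A GC box was present in 34.4% of the 90 lincRNA windows that start within 100 bases of the GENCODE start and in 35.7% of all 32851 windows, so that the match is common to both. A match is a description of letters and not a binding site.

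Gm14005 (ENSMUSG00000074813), named Morrbid in RefSeq, is known to control the lifespan of short-lived myeloid cells through the neighbouring gene Bcl2l11. It lies at chr2:128178319-128502765 on the minus strand, overlaps 4 other lincRNA genes and was 1.37, 1.38, 1.38 and 1.32 CPM with AAV8-GFP and 0.621, 0.661, 0.462 and 0.802 CPM with AAV8-AGXT. It too met the minimum in no AAV8-AGXT mouse, where 9, 11, 9 and 17 pairs were counted, so its log2 fold change of -1.09 ± 0.26 (SE) is a description. Its call was lost in each fit that left out 1 mouse. Bcl2l11, which encodes the pro-apoptotic protein BIM, had a log2 fold change of -0.01 and an adjusted p of 0.976.

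On the higher side, B930025P03Rik (ENSMUSG00000109473, chr8:10870422-10882454, minus strand) was 6.99, 6.31, 6.64 and 8.25 CPM with AAV8-GFP and 21.4, 16, 16.5 and 12.7 CPM with AAV8-AGXT. It rose by 1.24 (SE 0.17, adjusted p = 0.0198), and its groups were well apart. Gm45044 (ENSMUSG00000108969, chr8:10884453-10891591, minus strand), the next gene upstream on the same strand, was 0.742, 0.520, 0.784 and 0.970 CPM and then 2.49, 1.98, 1.54 and 1.60 CPM. It rose by 1.33 (SE 0.29, adjusted p = 0.0388), having met the minimum of 20 in 4 AAV8-AGXT mice and 1 AAV8-GFP mouse, and both genes were higher in all 4 AAV8-AGXT mice than in any AAV8-GFP mouse. The promoter window of B930025P03Rik, at chr8:10882405-10882704 (GRCm38.p6, minus strand), is shown as that of the higher lincRNA with the smallest p, with 2 CCAAT boxes (CCAAT on either strand) in capitals that begin 209 and 181 bases before the start. A CCAAT box was present in 43.3% of lincRNA windows and 37.4% of all windows.

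B930025P03Rik promoter window: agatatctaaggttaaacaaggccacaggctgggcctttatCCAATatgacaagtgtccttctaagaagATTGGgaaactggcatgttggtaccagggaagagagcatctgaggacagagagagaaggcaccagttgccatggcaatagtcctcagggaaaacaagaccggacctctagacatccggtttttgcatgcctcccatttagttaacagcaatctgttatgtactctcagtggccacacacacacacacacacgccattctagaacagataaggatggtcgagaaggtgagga

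The protein-coding gene nearest to both is Irs2, the insulin receptor substrate that carries much of insulin signalling in hepatocytes, and 5 expressed lincRNAs have it as their nearest coding gene. Apart from the 2 called, Gm2814 had a log2 fold change of 0.82 (adjusted p = 0.16), 3930402G23Rik of 0.97 (adjusted p = 0.297) and Gm32540 of -0.27 (adjusted p = 0.54). Gm2814 and 3930402G23Rik were highest in mouse 308, at 12.4 and 11 CPM, and their groups overlapped. Irs2 itself was 25.2, 40.2, 32.3 and 41.9 CPM with AAV8-GFP and 30.1, 47.9, 42.7 and 37.8 CPM with AAV8-AGXT. With a log2 fold change of 0.18 ± 0.18 (SE, adjusted p = 0.563) and overlapping groups, no difference of Irs2 was shown. These 5 genes were picked out after their values were seen, as was their count.

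**Figure D4:**
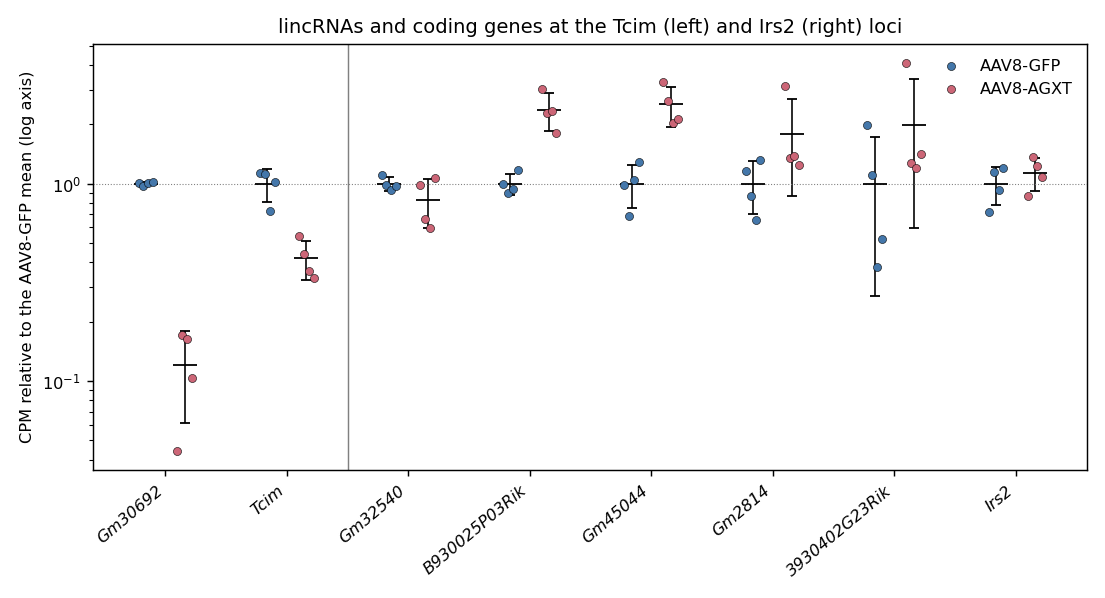
CPM relative to the AAV8-GFP mean (log axis) for Gm30692 and its neighbour Tcim (left of the line) and for 5 lincRNAs and Irs2 (right), 1 point per mouse with the group mean ± SD. Gm30692 and Tcim lie below 1 in all AAV8-AGXT mice, B930025P03Rik and Gm45044 lie above 1 in all of them, and Irs2 lies on both sides.

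Gm30931 (ENSMUSG00000110035, chr8:46363251-46367204, plus strand) was 1.17, 0.949, 1.11 and 0.926 CPM with AAV8-GFP and 3.04, 1.92, 2.11 and 1.98 CPM with AAV8-AGXT. It rose by 1.11 (SE 0.24, adjusted p = 0.0413), with mouse 308 above the rest of its group. Gm30262 (ENSMUSG00000112249, chr10:111599177-111611338, plus strand) was 9.14, 13.3, 9.41 and 11.1 CPM and then 14.4, 22.5, 15.6 and 20.4 CPM. It rose by 0.76 (SE 0.18, adjusted p = 0.0465), and the highest AAV8-GFP mouse came close to the lowest AAV8-AGXT mouse.

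The nearest coding gene of Gm30262 is Phlda1, which responds to growth and stress signals, 90532 bases away. Phlda1 was between 14.8 and 17.7 CPM with AAV8-GFP and was 21.8, 218, 63.9 and 15.6 CPM with AAV8-AGXT, so that mouse 309 carried most of its mean difference (log2 fold change 2.28, adjusted p = 0.0848). Gm31600 (ENSMUSG00000114800, chr13:37761748-37768147, plus strand), 10253 bases from the transcription factor gene Rreb1, was 1.02, 1.22, 0.646 and 0.970 CPM and then 2.35, 4.57, 1.54 and 2.45 CPM. It rose by 1.48 (SE 0.36, adjusted p = 0.0492), and Rreb1 had a log2 fold change of 0.47 and an adjusted p of 0.0666. In the fits that left out 1 mouse, Gm30262 was called in none, and Gm31600, Gm30931 and Gm45044 in 1 each.

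On chromosome 8 lay 4 of the 10 called lincRNAs, Gm30692, B930025P03Rik, Gm45044 and Gm30931, where 20 of the 250 (8.0%) lie. Over all genes, chromosome 8 held 5.54% of those tested and 6.33% of those called. This chromosome is described because it held the most called lincRNAs. Gm30692 was included by name, and B930025P03Rik and Gm45044 are neighbours on the same strand, so that the 4 are not separate cases.

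Whether lincRNAs moved with their neighbours was described over pairs in which both genes were tested. Across 29 pairs transcribed away from each other with starts less than 1000 bases apart, Pearson's r of the 2 log2 fold changes was 0.55, and 20 pairs had the same sign. Across 31 lincRNAs that overlapped their coding gene, r was 0.58 and 17 had the same sign, where reads may be shared. Across 33 lincRNAs more than 50000 bases away r was 0.11 and 22 had the same sign, and over all 211 pairs r was 0.35. These correlations are across genes of the same 8 livers, which are not independent replicates. Among the divergent pairs 1 lincRNA, Snhg18, and 1 coding gene, Tspan31, were called. The coding genes of these pairs that differed most were Dact3 (-0.97), Sema5a (-0.91) and Tspan31 (0.72). Each had the sign of its lincRNA, and r without these pairs was not computed.

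**Figure D5:**
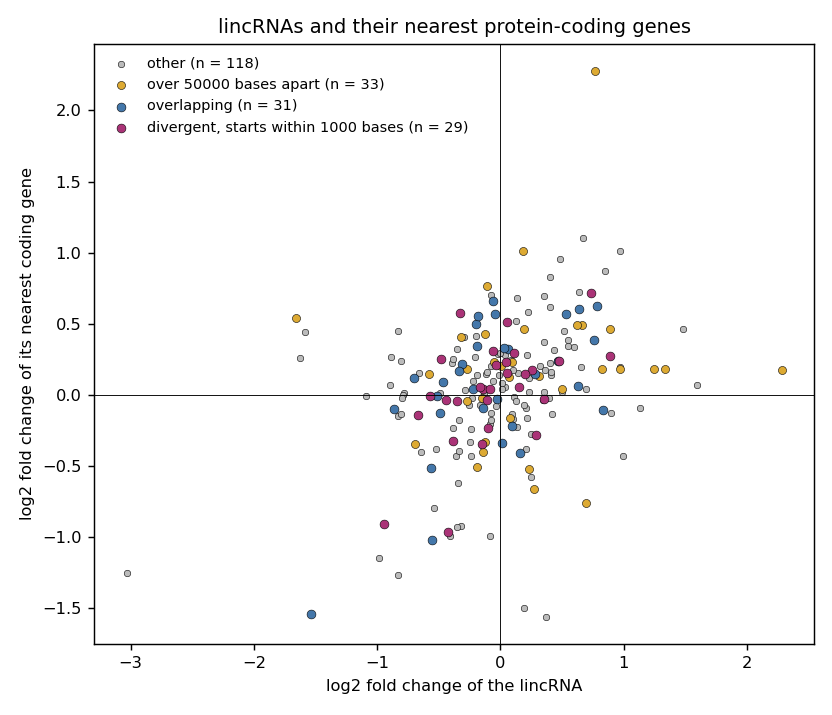
Log2 fold change of each lincRNA (x axis) and of its nearest protein-coding gene (y axis) for 211 pairs, coloured by their arrangement on the chromosome. Pearson's r was 0.55 for divergent pairs, 0.58 for overlapping pairs and 0.11 for pairs over 50000 bases apart. The same sign was found in 20 of 29, 17 of 31 and 22 of 33 of these, and whether sign follows distance was not tested.

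LincRNAs with a known role were taken from lists of 9 kinds. Of 21 snoRNA host genes listed, 6 are lincRNAs in the annotation and all 6 were among the 250 (Snhg6, Snhg10, Snhg12, Snhg18, Snhg20 and Epb41l4aos), and 1 fell, Snhg18. The other 5 had log2 fold changes between -0.36 and 0.19. Snhg20 was the next in size, with 14.8, 16.7, 17 and 16.9 CPM against 14.8, 10.5, 14.4 and 11.4 CPM and an adjusted p of 0.139, and the groups met at 14.8 CPM. Scaled by total counts, where the median log2 fold change of all genes was -0.22, its log2 fold change was -0.60 and its adjusted p 0.0436.

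Of 12 microRNA host genes listed, 5 are lincRNAs in the annotation, and of these Mir17hg and Mir142hg met the minimum and neither was called. The other 7 have another biotype or were not matched, and were not assessed. Mir17hg, the host of the miR-17-92 cluster, had a log2 fold change of -0.26 (adjusted p = 0.499). Mir142hg, which carries the blood-cell microRNA miR-142, was 2.38, 3.55, 1.94 and 2.12 CPM with AAV8-GFP and 0.345, 1.38, 1.39 and 1.84 CPM with AAV8-AGXT. Its groups did not overlap, the log2 fold change was -0.99 ± 0.40 (SE) and the adjusted p was 0.157. The mature strands that it carries, which these libraries did not measure, are shown from RefSeq with the seed (bases 2 to 8) in capitals.

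mmu-miR-142a-5p: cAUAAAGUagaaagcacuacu
mmu-miR-142a-3p: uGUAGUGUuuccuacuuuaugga

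In all, 12 of the 250 lincRNAs contained 22 annotated microRNAs, and none of them was called by edgeR. With 4.0% of the 250 and 4.35% of all genes called, a set of 12 is too small for this to be a result about microRNA hosts. A further count found 9 snoRNAs in 5 lincRNAs, of which Snhg18 was called, and 3 scaRNAs (guides for modification of spliceosomal RNAs) in 3 lincRNAs, none called. Mir1839 in 2900076A07Rik is annotated both as a microRNA and as a scaRNA and is in both counts.

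Of 5 RNAs on the immune list, AW112010 and Gm14005 were among the 250, and the values of Gm14005 above are a description, since it entered through the AAV8-GFP mice alone. AW112010 was 62.0, 79.2, 83.5 and 96.5 CPM with AAV8-GFP and 50.9, 57.8, 70.8 and 99.1 CPM with AAV8-AGXT, with overlapping groups and an adjusted p of 0.57. Both lists of X-inactivation and imprinted RNAs gave few members. Meg3, a maternally expressed RNA, had a log2 fold change of 0.36 (adjusted p = 0.556), Jpx of 0.35 (adjusted p = 0.549) and Ftx of near 0 (adjusted p = 0.992), and Jpx and Ftx overlap each other. Of the p53-linked list, Pvt1, which lies beside Myc, had a log2 fold change of -0.17 (adjusted p = 0.634).

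2900097C17Rik, named Norad in RefSeq, binds Pumilio proteins, and it was 39.4, 48.3, 70.4 and 53.6 CPM with AAV8-GFP and 54.1, 98.7, 58.8 and 61.0 CPM with AAV8-AGXT. Its groups overlapped and its adjusted p was 0.321. 1700020I14Rik, named Oip5os1 in RefSeq and known as Cyrano, a transcript that directs the decay of miR-7, lay between 46.2 and 56.4 CPM in all 8 mice. The 3 listed non-coding RNAs of liver metabolism were not assessed, since 2 have another biotype in the annotation and 1 was not matched by name.

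Gm42047, the fourth most counted lincRNA, was 177, 245, 152 and 306 CPM with AAV8-GFP and 37.7, 196, 61.9 and 115 CPM with AAV8-AGXT. Mouse 309 lay among the AAV8-GFP mice, and the log2 fold change of -1.10 ± 0.45 (SE) had an adjusted p of 0.156. It overlaps the protein-coding model Gm20388 on the same strand. AI427809, named Mexis in RefSeq and known in macrophages as an enhancer of Abca1 transcription, was chosen after its values were seen. It was 1.56, 2.39, 1.29 and 1.01 CPM with AAV8-GFP and 0.276, 0.421, 1.08 and 0.189 CPM with AAV8-AGXT, and a single AAV8-AGXT mouse, 316, lay within the AAV8-GFP range (log2 fold change -1.65, adjusted p = 0.0822). Abca1, the cholesterol exporter, was between 60.2 and 104 CPM with AAV8-GFP and between 93.9 and 144 CPM with AAV8-AGXT, with a log2 fold change of 0.54 and an adjusted p of 0.127.

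Marker genes of cell types also differed between the groups, in part. Of 4 proliferation markers (Mki67, Top2a, Cdk1 and Ccnb1) 3 fell, and their summed level was 17.7 to 29.2 CPM with AAV8-GFP and 3.87 to 10.3 CPM with AAV8-AGXT. Of 6 stellate cell markers 1 fell (446 to 784 against 193 to 511 CPM), and of 5 hepatocyte markers 1 rose (42269 to 50684 against 51673 to 72627 CPM). None of 6 macrophage markers (297 to 471 against 159 to 425 CPM), 5 cholangiocyte markers (225 to 673 against 74.1 to 272 CPM), 6 lymphocyte markers (8.59 to 15 against 4.35 to 9.76 CPM) or 5 endothelial markers (93.1 to 146 against 107 to 170 CPM) was called by edgeR. DESeq2 called 4 of the 5 cholangiocyte, 2 of the macrophage, 1 of the lymphocyte, 2 of the stellate and all 4 of the proliferation markers lower, 2 of the hepatocyte markers higher and 0 of the endothelial markers. No listed marker was at 0 in all mice, and the part of these markers in the lincRNA differences was not tested.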

How the data were processed

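Liver RNA was sequenced as stranded, paired-end mRNA libraries, 1 per mouse. Per the labels, the authors used FastQC 0.11.8, Trimmomatic 0.35, HISAT2 2.1.0.13 and HTSeq on GRCm38, with Ensembl release 90 according to the study's methods. The deposited values are raw counts of read pairs per gene, 52636 genes per mouse, of which 52489 were matched to GENCODE M21. Rows that name no gene (43.7% of tallied pairs at most) were left out. The purification of mRNA enriches polyadenylated RNA, so other lincRNAs are under-represented.

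Groups were compared with edgeR 4.0.16 under R 4.3.3 (filterByExpr, TMM, quasi-likelihood test, treatment as the only term) over 15248 genes with Benjamini-Hochberg adjustment. Log2 fold changes used a prior count of 0.125. The spread between mice fitted in common over all genes tested (biological coefficient of variation) was 23.3%. For scarce lincRNAs low counts also limit the precision. DESeq2 1.42.0, limma 3.58.1 (voom), other size factors and filters, count minimums of 10 and 50, overlap-free members and each mouse left out were alternatives. The edgeR, DESeq2 and voom fits were tested on simulated data. The named genes were Gm30692, at most 15 called lincRNAs per direction by p, the 10 most abundant per kb, listed lincRNAs of known role, and nearest coding genes, with the exceptions stated. Members and lists were chosen with earlier results of these data known.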

Additional observations from a re-analysis of the deposited data

Results flagged for a closer look

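In 9 of 66 groups of 4 mice (the 32 named lincRNAs and the share of counts on lincRNAs, in each group), 1 mouse stood apart from the other 3 by more than Dixon's 95% limit, where chance gives about 1 in 20. Mouse 308 was flagged for Malat1 (733 CPM, against 123 to 158 CPM in the other AAV8-AGXT mice), for Gm26917 (573 against 150 to 174 CPM) and for Gm30931 (3.04 against 1.92 to 2.11 CPM). Mouse 303 was flagged for Neat1 (1595 CPM, against 1315 to 1347 CPM in the other AAV8-GFP mice), for Gm10076 (28.3 against 12.7 to 15.4 CPM) and for Snhg20 (14.8 against 16.7 to 17 CPM). Mouse 319 was flagged for Gm10076 (36.8 against 12.4 to 16.6 CPM) and for 1700020I14Rik (46.2 against 55.0 to 56.4 CPM), and mouse 309 for 2900097C17Rik (98.7 against 54.1 to 61.0 CPM). Without both mice with high Malat1, 303 and 308, chosen after seeing the data, the log2 fold change of Malat1 was -0.14 and its adjusted p was 0.718.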

How the results depend on the processing

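No paired analysis was possible because the groups share no mouse numbers. From 5 higher and 5 lower (all genes 374 and 290), the counts of called lincRNAs moved to 16 and 15 with DESeq2 (all genes 1077 and 1054). They moved to 2 and 11 with total counts (144 and 857), and to 1 and 1 without mice 303 and 308 (65 and 51). A filter of at least 10 counts in every mouse gave 3 and 2 (208 lincRNAs tested, all genes 280 and 226). That filter left out Gm30692, Gm13056 and Gm14005, which were called lower in the main fit, so they were not tested there. With DESeq2's size factors 3 were higher (339 of all genes). At a count minimum of 50, which 135 lincRNAs met, the counts were 2 and 3. Leaving out 1 mouse gave 0 to 4 higher and 0 to 5 lower, with 0.0130 to 4.07% of all genes called. The median log2 fold change was -0.25 with total counts, where that of all genes was -0.22, and between -0.09 and 0.04 with 1 mouse left out. The difference in the share of counts on lincRNAs stayed between -0.065 and -0.0281 percentage points with 1 mouse left out. With total counts the log2 fold change turned negative for Tmem250-ps (-0.0156), Epb41l4aos (-0.0695), Neat1 (-0.14), Gm10076 (-0.0284), 1700020I14Rik (-0.17) and Snhg12 (-0.22). Snhg12 was -0.0250 with at least 10 counts in every mouse and -0.00758 without a filter. Without mice 303 and 308, Malat1 was -0.14 and 1700020I14Rik -0.00831. With 1 mouse left out, the log2 fold change ranged from -0.66 to 0.93 for Malat1, -0.43 to 0.91 for Gm26917, -0.22 to 0.56 for Gm10076, -0.20 to 0.0315 for 1810058I24Rik, -0.15 to 0.0754 for Snhg6, -0.26 to 0.19 for Snhg10, -0.0599 to 0.0751 for Snhg12 and -0.0853 to 0.0530 for Ftx. None of these genes was called in any of those fits, and the causes were not tested. Snhg20 passed the threshold with total counts (-0.60, adjusted p = 0.0436 by edgeR). No called lincRNA changed direction in a fit that tested it.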
